A study of Homo sapiens with 8 samples.

Results

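The genes described here encode the machinery that brings proteins into mitochondria, folds them in the matrix and trims or degrades them there. They were chosen by name, as all TIMM and TOMM genes followed by a number plus 18 named genes of the import motor, the sorting machinery, the matrix chaperones and the matrix peptidases. Of 16082 genes in the deposited count table, 43 matched and 41 had at least 10 counts in 4 or more of the 8 libraries. PAM16 and TOMM20L did not reach that level and were left out. All 41 were among the 12001 genes tested.

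Poly(A) RNA came from KYSE150 cells, an established esophageal squamous cell carcinoma line. There were 4 control libraries and 4 libraries from cells carrying a short hairpin RNA against HNRNPC (shHNRNPC), a nuclear RNA-binding protein, and the labels give no further treatment for either group. The labels do not name the hairpin sequence or the hairpin used in the controls, and do not say whether the samples were separate cultures or clones, so a p-value here reflects only how these libraries vary, and that variation may be technical. HNRNPC stood at 571 to 601 CPM (read counts scaled to a common library total with a composition factor) in the controls and at 32.5 to 36.5 CPM after knockdown, or 5.78% of control. Library totals were 31260906 to 33745592 counts in the controls and 28323403 to 34913500 in the knockdown. All 8 squamous epithelial markers examined were in the table, with KRT5 at a mean of 841 CPM and a summed level of 1180 CPM in the controls and 1790 to 1820 CPM after knockdown. Fibroblast markers (5 of 5 in the table) summed to 3.68 to 3.92 CPM in the controls and 8.33 to 9.45 CPM after knockdown, endothelial markers (3 of 3) to 2.05 to 2.46 and 1.20 to 1.82 CPM, and the 2 leukocyte markers with a row to at most 0.388 CPM. None of these marker genes was at 0 in all 8 libraries, and their part in the results was not tested. Since RNA was measured in bulk, fewer cells expressing a gene and less RNA per cell cannot be told apart.

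Most mitochondrial proteins are encoded in the nucleus, made in the cytosol and imported. Precursors cross the outer membrane through the TOM complex. From there, those with an N-terminal presequence pass the inner membrane through the TIM23 complex, pulled in by the HSPA9 motor, and lose the presequence to the processing peptidase. Metabolite carriers are escorted by small TIM chaperones to the TIM22 complex, and HSPD1 with HSPE1 form the chamber in which many matrix proteins fold.

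Upstream sequences are shown first for 3 pairs of neighbouring or duplicated genes whose counts are compared below, and for the gene that fell furthest. They are RefSeq sequences of GRCh38.p14, read 5′ to 3′ on the strand of the gene and ending at the base before the transcript start of the promoter table unless stated otherwise. GENCODE 29 also holds transcripts of these genes that begin inside or before the stretches shown. The RefSeq gene TIMM17B, on the minus strand, reaches chrX:48898143, so its stretch lies inside the RefSeq gene. HSPD1 and HSPE1 lie head to head on chromosome 2, and the 104 bases between their starts (chr2:197500275-197500378, printed on the strand of HSPE1) are shown with the single GC-box match (GGGCGG on either strand) in capitals.

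HSPD1-HSPE1 gap: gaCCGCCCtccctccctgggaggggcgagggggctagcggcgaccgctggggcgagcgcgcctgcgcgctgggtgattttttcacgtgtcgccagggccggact

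TIMM23 and TIMM23B on chromosome 10 are near-identical copies. Their promoter windows of 300 bases, shifted by 6 bases, shared 289 of 294 bases (98.3%). In the 150 bases shown, capitals mark the 4 bases that differ. The TIMM23 stretch is chr10:45972333-45972482, ending 6 bases further upstream, and the TIMM23B stretch is chr10:49941903-49942052.

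TIMM23: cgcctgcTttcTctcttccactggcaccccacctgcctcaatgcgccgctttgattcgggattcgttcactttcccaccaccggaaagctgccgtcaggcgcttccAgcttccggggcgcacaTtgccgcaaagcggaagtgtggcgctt

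TIMM23B: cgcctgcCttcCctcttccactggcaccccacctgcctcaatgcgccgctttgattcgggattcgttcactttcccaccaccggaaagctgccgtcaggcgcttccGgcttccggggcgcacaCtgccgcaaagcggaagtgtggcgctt

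TIMM17A (chr1:201955353-201955502, plus strand) and TIMM17B (chrX:48897769-48897918, minus strand) are diverged copies of one TIM23 channel subunit. Capitals mark CCAAT on either strand, 3 matches in each stretch, of which 2 adjoin in TIMM17B.

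TIMM17A: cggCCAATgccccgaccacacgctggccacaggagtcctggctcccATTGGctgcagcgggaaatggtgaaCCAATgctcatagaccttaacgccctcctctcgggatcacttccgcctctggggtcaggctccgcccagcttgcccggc

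TIMM17B: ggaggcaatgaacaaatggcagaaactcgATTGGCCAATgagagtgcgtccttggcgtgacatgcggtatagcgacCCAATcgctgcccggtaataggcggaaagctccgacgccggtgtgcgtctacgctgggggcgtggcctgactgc

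The GRPEL2 stretch is chr5:149345349-149345498, on the plus strand. Capitals mark 3 matches to CCGGAAG, a core bound by ETS-family factors.

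GRPEL2: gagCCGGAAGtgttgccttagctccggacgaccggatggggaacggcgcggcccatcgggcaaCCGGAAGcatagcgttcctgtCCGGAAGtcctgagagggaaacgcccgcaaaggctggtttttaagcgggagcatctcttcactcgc

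Promoter windows of 300 bases (250 before and 50 after the start) were matched for 37 of the 41 genes, and CLPP, GRPEL1, TIMM8B and TOMM5 had none. On either strand, CCGGAAG was in 15 of the 37 (40.5%), against 20% of 9890 windows of tested genes. GCATGCGC, a core of the NRF1 site, was in 4 (10.8%, against 5.66%), TGATGNAA, a form of the site bound by ATF4 heterodimers, in PMPCB and TIMM22 (5.41%, against 1.72%), and CCAAT in 13 (35.1%, against 37.0%). GGGCGG was in 26 (70.3%, against 70.5%), and the heat shock element core GAANNTTC was in 0 of 37, against 4.67%. Matches may overlap one another, and a match is a description of the letters and not a binding site.

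After HNRNPC knockdown the import genes went both ways, with the strongest fall in a co-chaperone of the matrix motor and the strongest rise in a folding chaperone. Of the 41 genes, 22 rose and 10 fell in the quasi-likelihood test of edgeR at a threshold of 0.05 on p-values adjusted over all genes tested, and 9 did not pass. The 32 called genes are 78.0%, against 77.3% of all genes tested. By direction, 53.7% rose, against 38.7% of all genes, and 24.4% fell, against 38.6%. The median log2 fold change was 0.11, against -0.01 for all genes. Changes were small: 4 genes (GRPEL2, HSPE1, TIMM8B and TOMM6) changed at least 1.5-fold, or 9.76%, against 21.9% of all genes, and 3 of the 4, all but GRPEL2, have over 20% of their exon bases inside another gene. The CPM of the groups did not overlap for 29 genes (70.7%), against 70.8%. Without shHNRNPC replicates 1 and 4, which earlier results of these data set apart, 19 rose and 10 fell.

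**Figure D1:**
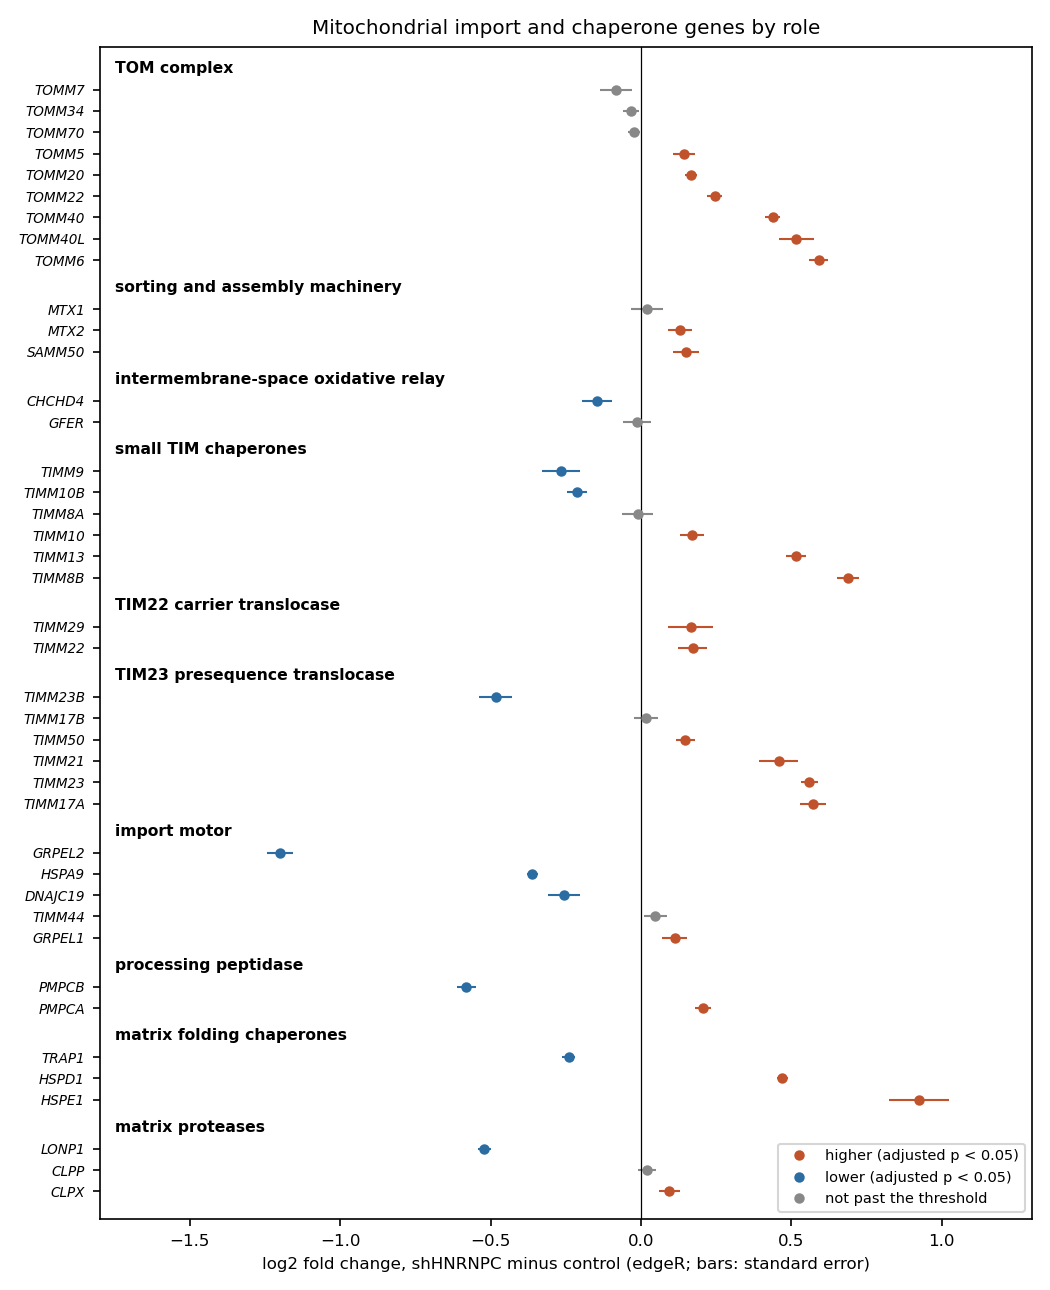
Log2 fold change of each of the 41 genes (horizontal axis, shHNRNPC minus control) with its standard error, grouped by role. Colour gives the call at an adjusted p of 0.05. GRPEL2 at -1.20 lies furthest left and HSPE1 at 0.93 furthest right. None of the 9 genes grouped with the TOM complex, among them the cytosolic cofactor TOMM34, is called lower, against 38.6% of all genes tested. In some alternative fits TOMM7, TOMM34 or TOMM70 was called lower.

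Among the genes grouped with the TOM complex 6 of 9 rose by edgeR (66.7%, against 38.7% of all genes tested) and 0 fell (against 38.6%). At an unadjusted p of 0.05 also 0 fell. No role group was tested as a set. TOMM7 was called lower by limma-voom (-0.08, adjusted p = 0.0421), by edgeR with no filter on low counts (-0.09, adjusted p = 0.00443) and by edgeR without control replicate 3. TOMM6, TOMM40L and TOMM40 led the rises, whereas the receptor TOMM70, the small subunit TOMM7 and the cytosolic cofactor TOMM34 did not pass. TOMM6 encodes a small subunit beside the channel. Its CPM were 75.4, 71.8, 68.1 and 67.9 in control replicates 1 to 4 and 109, 102, 109 and 108 in the knockdown replicates. Every knockdown library was above every control (log2 fold change 0.59, SE 0.0323, edgeR adjusted p = 3.84e-25), but all of its exon bases (100%) lie in another annotated gene on the same strand, so its reads cannot be assigned to it with certainty. The channel gene TOMM40 went from 127 ± 2.19 to 172 ± 3.07 CPM (SD, n = 4), a log2 change of 0.44 and 135% of control. TOMM40L, its copy, went from 16.1 ± 0.593 to 23.1 ± 0.587 CPM (0.52), with 20.2% of exon bases overlapping another gene. The ratio of TOMM40 to TOMM40L differed by -0.08 on the log2 scale, within the spread between libraries (exact permutation test, two-sided, p = 0.114, adjusted over 13 pairs p = 0.124), and passed without control replicate 2 (-0.10, exact permutation test, adjusted p = 0.031).

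Among the receptors, TOMM20, which binds presequences, rose from 455 ± 5.57 to 511 ± 5.39 CPM (0.17), and TOMM22, the central receptor that organises the complex, from 128 ± 1.66 to 152 ± 3.48 CPM (0.24). TOMM70, the receptor for carrier precursors and for cytosolic chaperones, was at 258 ± 2.69 and 254 ± 4.38 CPM (-0.02, edgeR adjusted p = 0.315). The ratio of TOMM20 to TOMM70 therefore moved by 0.19 on the log2 scale, and the groups did not overlap (two-sided exact permutation test, p = 0.0286, adjusted p = 0.0338, 4 libraries per group). The value 0.0286 is the smallest that the 70 assignments of 4 and 4 libraries allow. TOMM5 rose by 0.14, although its groups overlapped (57.8 to 66.8 and 64.2 to 71.0 CPM) and 64.6% of the 100-base windows of its transcript also occur in another annotated gene. TOMM7 (-0.08, adjusted p = 0.173) and TOMM34 (-0.03, adjusted p = 0.274) gave values below 0 that did not pass edgeR's test. Of the TOM genes, TOMM7 varied most in the controls, from 110 to 131 CPM. Without control replicate 3, its lowest control, TOMM7 passed (-0.13, adjusted p = 0.000425). With upper-quartile factors TOMM34 (-0.06, adjusted p = 0.0452) and TOMM70 (-0.05, adjusted p = 0.0277) passed as lower, and so did TOMM70 with library totals (adjusted p = 0.0468).

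The sorting and assembly machinery inserts barrel proteins into the outer membrane. It rose slightly in 2 of 3 genes (66.7%, against 38.7% of all genes). SAMM50, its central barrel subunit, stood at 42.5, 39.4, 38.0 and 41.1 CPM in the controls and at 48.2, 42.9, 43.4 and 44.5 CPM after knockdown. The groups were separated by less than 1 CPM (log2 fold change 0.15, edgeR adjusted p = 0.00166), and without shHNRNPC replicates 1 and 4 the log2 change was 0.10 and the adjusted p 0.0695 (0.000753 to 0.0695 over all alternatives). MTX2 rose by 0.13 (44.2 ± 1.19 to 48.4 ± 1.07 CPM). MTX1 did not pass (0.02), and 50.2% of its 100-base windows also occur in its pseudogene.

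In the oxidative relay of the intermembrane space, CHCHD4, the import receptor that introduces disulfide bonds, had 34.7, 34.1, 30.4 and 35.2 CPM in the controls and 30.8, 30.1, 29.6 and 31.1 CPM after knockdown. Control replicate 3 lay among the knockdown libraries, so the groups overlapped (-0.15, edgeR adjusted p = 0.00604). GFER, the oxidase that recharges CHCHD4, was at 32.4 ± 0.392 and 32.1 ± 1.5 CPM (SD, n = 4; -0.01, 95% interval -0.106 to 0.08), with 25.9% of exon bases overlapping another gene.

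The small TIM chaperones went both ways. These intermembrane-space proteins form hexamers, TIMM9 with TIMM10 and TIMM8A with TIMM13, that shield hydrophobic precursors. Of the 6, TIMM8B, TIMM13 and TIMM10 rose and TIMM9 and TIMM10B fell, while TIMM8A did not pass. TIMM8B had 51.0, 50.5, 47.5 and 50.03 CPM in the controls and 75.8, 81.3, 81.4 and 82.0 CPM after knockdown. All knockdown libraries were above all controls, with replicate 1 the lowest of them (0.69, SE 0.0354, edgeR adjusted p = 6.67e-27), and 32.3% of the exon bases of TIMM8B, on chromosome 11 from 112084800 to 112086756, lie in genes on the opposite strand. TIMM8A, the X-linked copy mutated in a deafness-dystonia syndrome, had 26.4, 26.7, 28.1 and 28.2 CPM in the controls and 28.1, 27.8, 27.2 and 25.5 CPM after knockdown, with full overlap (-0.01, 95% interval -0.111 to 0.089). The ratio of TIMM8A to TIMM8B fell by 0.70 on the log2 scale (exact permutation test, two-sided, adjusted p = 0.0338, n = 4 per group). Per transcript length, TIMM8A made up 21.0 ± 1.00% of the pair in the controls and 14.1 ± 0.862% after knockdown.

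TIMM13, the partner of TIMM8A, rose from 63.5 ± 2.68 to 90.7 ± 3.88 CPM (SD, n = 4; 0.52), with 28.9% of exon bases overlapping other genes. The subunits of the other hexamer moved apart. TIMM9 had 21.2, 22.7, 20.9 and 23.4 CPM in the controls and 17.0, 16.6, 20.7 and 18.9 CPM after knockdown, with the largest coefficient of variation of the 41 genes among the knockdown libraries (10.3%). The highest knockdown value lay just below the lowest control (-0.27, edgeR adjusted p = 0.000127), and 30.5% of its exon bases overlap other genes. TIMM10 had 49.6, 51.2, 49.8 and 48.7 CPM in the controls and 51.5, 57.3, 57.8 and 57.4 CPM after knockdown, again with replicate 1 the lowest (0.17, edgeR adjusted p = 9.29e-05). The ratio of TIMM9 to TIMM10 fell by 0.44 on the log2 scale (exact permutation test, two-sided, adjusted p = 0.0338, n = 4 per group). TIMM10B, the copy that docks the hexamer on TIM22, fell by 0.21, from 86.0 ± 5.20 to 74.2 ± 1.84 CPM.

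The TIM22 carrier translocase rose slightly in both genes, where 38.7% of all genes rose. TIMM22, its channel, had 29.2, 27.1, 27.5 and 28.2 CPM in the controls and 32.1, 31.9, 29.7 and 32.5 CPM after knockdown, a small shift with no overlap (0.17, edgeR adjusted p = 0.00141). TIMM29, a subunit of the same complex, was at 12.3 ± 0.650 and 13.8 ± 0.396 CPM (0.16, edgeR adjusted p = 0.0401). Leaving out control replicate 1 or 2 or shHNRNPC replicate 1 or 3 ended that call (edgeR adjusted p 0.110, 0.107, 0.0693 and 0.0642). The call was also lost with upper-quartile factors (0.0854), library totals (0.075), no filter (0.0625) and without shHNRNPC replicates 1 and 4 (0.0825). Its adjusted p ranged from 0.0303 to 0.110 over all alternatives.

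In the TIM23 presequence translocase 4 of 6 genes rose, TIMM23B fell and TIMM17B did not pass. The shares were 66.7% higher and 16.7% lower, against 38.7% and 38.6% of all genes. TIMM17A, a channel subunit with a short-lived protein, had 33.8, 36.1, 31.9 and 32.4 CPM in the controls and 47.8, 50.5, 51.9 and 49.4 CPM after knockdown. Its groups were well apart (0.57, SE 0.0437, edgeR adjusted p = 9.81e-19). TIMM17B, the copy on the X chromosome, had 48.7, 52.1, 49.4 and 48.8 CPM in the controls and 52.9, 50.1, 49.96 and 48.5 CPM after knockdown, with groups that overlapped throughout (0.02, 95% interval -0.06 to 0.094). The ratio of TIMM17A to TIMM17B rose by 0.56 on the log2 scale (exact permutation test, two-sided, adjusted p = 0.0338, n = 4 per group), and the share of TIMM17A in the pair per length went from 27.9 ± 0.717% to 36.2 ± 1.44%. Both promoter stretches shown above carry CCAAT.

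TIMM23, the channel itself, and its copy TIMM23B moved in opposite directions. TIMM23 had 83.9, 84.9, 81.1 and 87.6 CPM in the controls and 125, 126, 123 and 123 CPM after knockdown (0.56, SE 0.0285, edgeR adjusted p = 3.82e-27). TIMM23B had 25.9, 25.6, 27.0 and 26.6 CPM in the controls and 18.9, 19.3, 18.9 and 18.2 CPM after knockdown (-0.48, SE 0.0543, edgeR adjusted p = 3.90e-12). Neither gene's groups overlapped. The log2 ratio of the pair rose by 1.04 (exact permutation test, two-sided, adjusted p = 0.0338, n = 4 per group), and the promoter windows are those compared above. Of their 100-base windows, 4.9% of TIMM23 and 8.7% of TIMM23B occur unchanged in another annotated gene, for TIMM23 always TIMM23B and for TIMM23B either TIMM23 or the noncoding LINC00843. How the counting divided reads between near-identical copies is not given in the sources used here, so both values are uncertain. TIMM21, which links TIM23 to the respiratory chain, rose from 14.8 ± 0.697 to 20.4 ± 1.19 CPM (0.46), and the presequence receptor TIMM50 from 72.1 ± 0.380 to 79.9 ± 1.958 CPM (0.15). The ratio of TIMM22 to TIMM23, the channels of the 2 inner-membrane translocases, fell by 0.39 on the log2 scale (exact permutation test, two-sided, adjusted p = 0.0338, n = 4 per group).

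**Figure D2:**
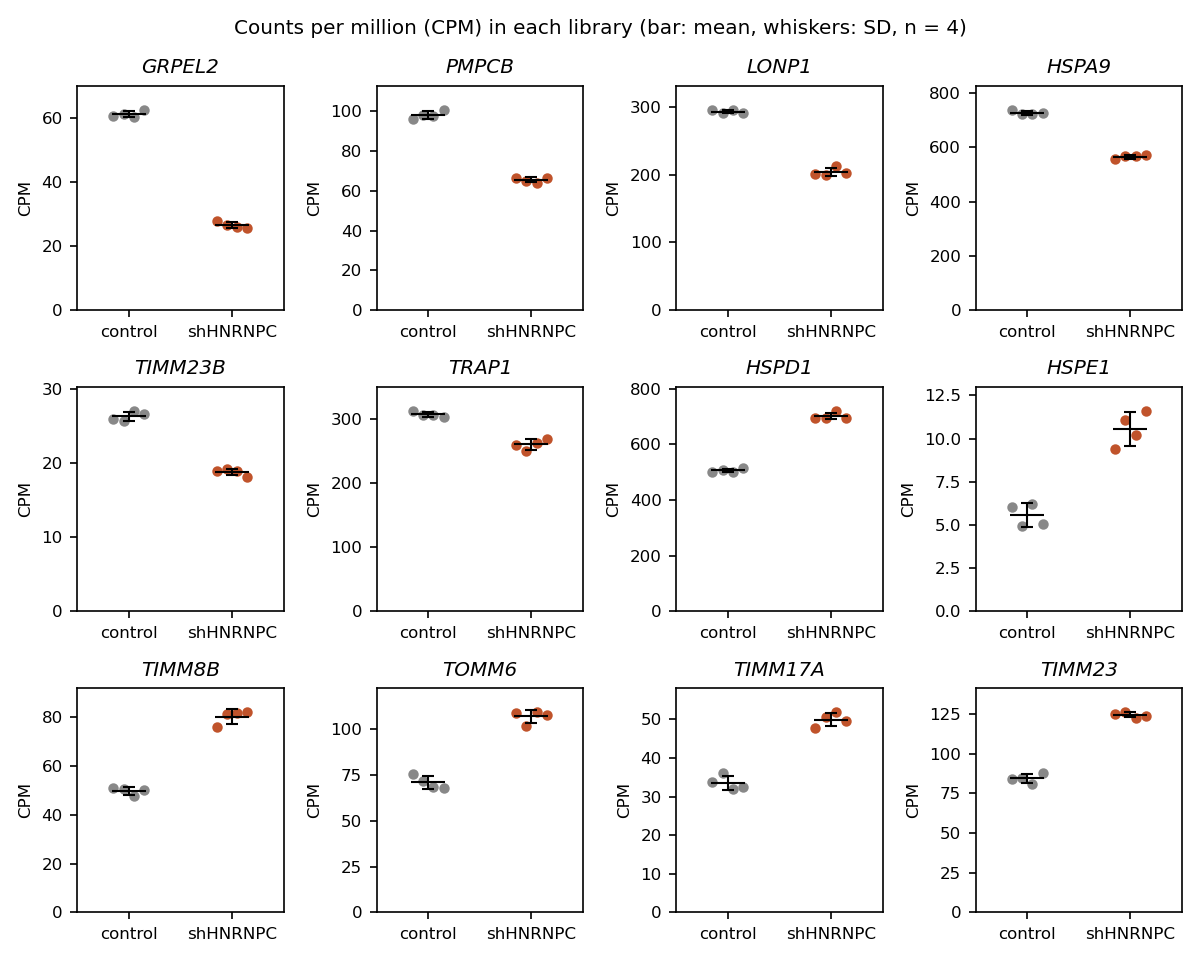
CPM of 12 genes in each of the 4 control and 4 shHNRNPC libraries (points), with mean and SD. The vertical axes start at 0. In all 12 panels the groups are separate, 6 with lower and 6 with higher knockdown values, which follows from the choice of genes. Groups did not overlap for 70.7% of the 41 genes, against 70.8% of all genes tested. Of the 41 genes, 22 rose and 10 fell.

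In the import motor HSPA9, DNAJC19 and GRPEL2 fell, GRPEL1 rose and TIMM44 did not pass, or 3 of 5 lower and 1 of 5 higher, against 38.6% and 38.7% of all genes. Its summed level, most of it HSPA9, was 909 to 923 CPM in the controls and 718 to 723 CPM after knockdown. The summed TIM23 translocase was at 277 to 286 and 341 to 346 CPM. Neither sum is scaled to transcript length, so the motor sum mostly follows HSPA9. The TIM23 sum is spread over more genes, with TIMM23 at 84.4, TIMM50 at 72.1 and TIMM17B at 49.75 CPM in the controls. HSPA9 is the mitochondrial HSP70 that pulls precursors inward. It fell from 727 ± 7.13 to 566 ± 6.96 CPM (SD, n = 4), or 77.8% of control, with control libraries at 721 to 737 and knockdown libraries at 556 to 572 CPM (-0.36, SE 0.0182, edgeR adjusted p = 2.24e-27). DNAJC19, a J protein associated with the motor and with prohibitins, fell by 0.26 on the log2 scale (33.5 ± 1.70 to 28.1 ± 2.46 CPM). TIMM44, which tethers HSPA9 to the channel, did not pass (0.05, 95% interval -0.029 to 0.125).

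The nucleotide exchange factors GRPEL1 and GRPEL2, which release ADP from HSPA9, parted most of all pairs. GRPEL2, on chromosome 5 from 149345499 to 149354583, had 60.6, 61.2, 60.2 and 62.4 CPM in the controls and 28.0, 26.7, 26.0 and 25.8 CPM after knockdown. The knockdown mean was 43.6% of control, and the 2 ranges lay far apart (-1.20, SE 0.0421, edgeR adjusted p = 1.31e-35). GRPEL1, the essential paralogue, had 46.4, 47.0, 45.2 and 47.9 CPM in the controls and 55.7, 47.8, 49.2 and 49.3 CPM after knockdown, overlapping at 1 library with replicate 1 set above the rest (0.11, edgeR adjusted p = 0.0122). The GRPEL1 call was lost without shHNRNPC replicate 1 (0.07, adjusted p = 0.145), without replicates 1 and 4 (adjusted p = 0.258) and with upper-quartile factors (adjusted p = 0.0569), over a range of 0.00367 to 0.258. The log2 ratio of GRPEL1 to GRPEL2 rose by 1.31 (exact permutation test, two-sided, adjusted p = 0.0338, n = 4 per group). Per transcript length GRPEL1 held 52.9 ± 0.249% of the pair in the controls and 73.6 ± 0.860% after knockdown.

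Earlier results of these data connected falls with the 7-base word GAATGAT in 3′ untranslated regions. In the GENCODE release 29 principal transcripts, 57.1% of 1235 tested genes that carry it fell, against 36.4% of 10415 without it. As the word was taken from results of these same libraries, that difference is not separate evidence for it. The length of the untranslated regions was not taken into account. Among the 41 import genes it occurs once in GRPEL1, which rose, and once in GRPEL2, which fell. The word is in capitals in both sites, and its part in the fall of GRPEL2 was not tested.

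GRPEL1: aaaaaggctGAATGATtggcgtctg

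GRPEL2: cgacttaatGAATGATacatcagtc

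The 2 subunits of the processing peptidase moved in opposite directions. PMPCB is the catalytic subunit, which cuts off presequences. It had 95.6, 98.0, 97.4 and 100.3 CPM in the controls and 66.4, 64.9, 63.9 and 66.5 CPM after knockdown, all far below the controls (-0.58, SE 0.0310, edgeR adjusted p = 4.41e-26). PMPCA, which holds the precursor, had 116, 114, 117 and 117 CPM in the controls and 131, 132, 136 and 136 CPM after knockdown, all above (0.21, SE 0.0261, edgeR adjusted p = 1.60e-10). The log2 ratio of PMPCA to PMPCB rose by 0.79 (exact permutation test, two-sided, adjusted p = 0.0338, n = 4 per group), and PMPCA per length went from 57.4 ± 0.539% to 69.9 ± 0.692% of the pair. PMPCB lies on chromosome 7 from 103297435 to 103347542, and 13% of its exon bases overlap a gene on the opposite strand.

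**Figure D3:**
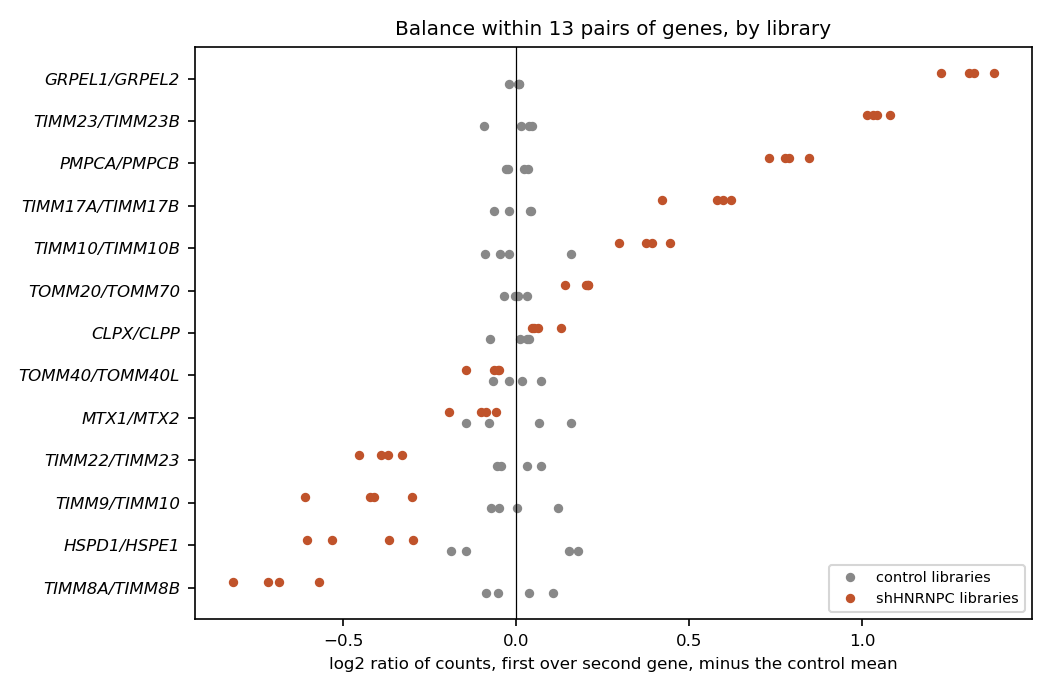
Log2 ratio of counts within each of 13 pairs, per library, minus the mean of the control libraries. Positive values mean more of the first gene relative to the second. GRPEL1/GRPEL2 moved furthest (1.31), and only TOMM40/TOMM40L and MTX1/MTX2 did not pass the exact permutation test after adjustment.

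Of the 13 pairs, 11 passed at adjusted p = 0.0338. The groups do not overlap for 70.8% of all single genes either, and the share of other gene pairs that would pass was not computed, so the count says nothing particular about these pairs. The change was at least 0.4 on the log2 scale in 7 of them. The pairs that did not pass were TOMM40 with TOMM40L, given above, and MTX1 with MTX2 (-0.11, adjusted p = 0.229). TIMM10 with TIMM10B moved by 0.38, and CLPX with CLPP by 0.07, the smallest difference to pass. TIMM10 with TIMM10B did not pass without shHNRNPC replicate 3 (0.36, exact permutation test, adjusted p = 0.0675). CLPX with CLPP did not pass without control replicate 3 or without any 1 of the 4 knockdown replicates (0.05 to 0.08, exact permutation test, adjusted p from 0.0675 to 0.101). With all libraries the groups of both pairs did not overlap. Leaving out a library leaves fewer assignments and larger steps of the p-value, so these losses do not by themselves show dependence on single libraries.

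The folding chaperones of the matrix rose in 2 of 3 cases (66.7%, against 38.7% of all genes). HSPD1 (HSP60), with the highest level per length of the 41 genes in both groups, had 500, 509, 500 and 514 CPM in the controls and 696, 696, 719 and 693 CPM after knockdown, with replicate 3 the highest (0.47, SE 0.0187, edgeR adjusted p = 8.87e-33). HSPE1 (HSP10), the lid of the HSPD1 chamber, had 6.06, 4.92, 6.25 and 5.05 CPM in the controls and 9.41, 11.1, 10.2 and 11.6 CPM after knockdown. Both genes, which flank the 104 bases shown above, rose, and HSPE1 reached 190% of control (0.93, SE 0.0996, edgeR adjusted p = 8.61e-13). The part of that stretch in the rises was not tested. HSPE1 was counted at 159 to 385 reads per library, the fewest of the 41 genes, and HSPD1 took 97.2 ± 0.363% of the pair per length in the controls. Of the HSPE1 transcript, 49.8% overlaps other annotated genes. The genes that overlap HSPE1 exons are HSPD1 itself, on the opposite strand, and the HSPE1-MOB4 read-through gene. As the strand setting is not given in the sources used here, HSPE1 counts may include HSPD1 reads, and their part in the rise was not tested. In addition, 17.0% of its 100-base windows recur in HSPE1-MOB4 or in pseudogenes. The level of HSPE1 and its ratio to HSPD1 are therefore uncertain. The log2 ratio of HSPD1 to HSPE1 changed by -0.45 (exact permutation test, two-sided, adjusted p = 0.0338, n = 4 per group). Without shHNRNPC replicate 2 or 4 that ratio gave -0.42 and -0.40 and did not pass (exact permutation test, adjusted p = 0.0743 and 0.0675, against 0.0338 with all libraries and 0.148 at most). With all libraries the groups of the ratio did not overlap, and the steps of the p-value are larger with fewer libraries. TRAP1, the mitochondrial HSP90, fell by 0.24, from 307 ± 3.66 to 260 ± 7.89 CPM, with 29.3% of exon bases overlapping other genes.

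Of the matrix proteases, LONP1 fell, CLPX rose slightly and CLPP did not pass. LONP1 is an ATP-dependent protease that clears damaged and excess matrix proteins, on chromosome 19 from 5691834 to 5720452. It had 295, 291, 294 and 291 CPM in the controls and 201, 200, 213 and 202 CPM after knockdown, or 69.7% of control, with no overlap (-0.52, SE 0.0219, edgeR adjusted p = 2.28e-31). CLPX, the unfoldase of the other matrix protease, was at 58.7 ± 1.23 and 62.6 ± 1.70 CPM (0.09, edgeR adjusted p = 0.0139). Leaving out shHNRNPC replicate 2 ended the CLPX call (adjusted p = 0.0539), as did upper-quartile scaling (0.0783) and scaling by library totals (0.0575), over a range of 0.00637 to 0.0783. CLPP, its peptidase chamber, was at 92.2 ± 2.34 and 93.6 ± 1.85 CPM (0.02, 95% interval -0.037 to 0.079).

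**Figure D4:**
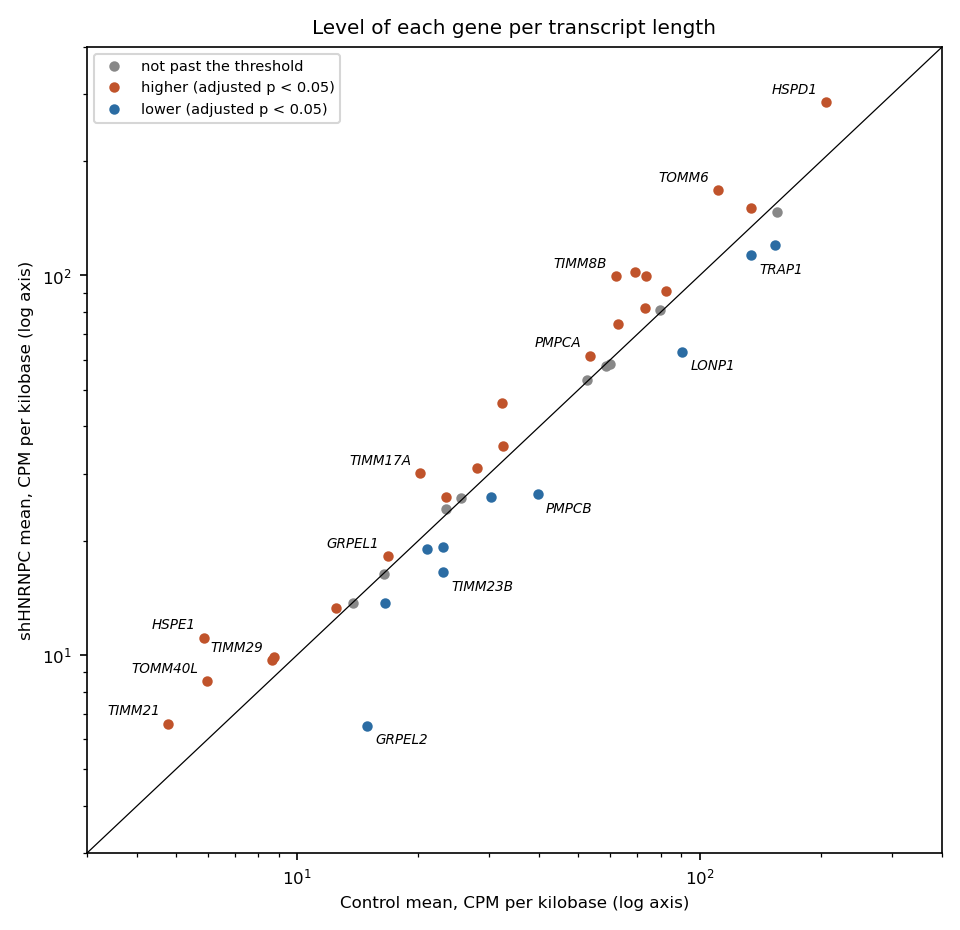
Mean level per kilobase of transcript in the control (horizontal) and shHNRNPC (vertical) libraries, both on log axes, for the 41 genes. The line marks equal levels. GRPEL2 lies furthest below it, and HSPE1, TIMM8B and TOMM6 are among those furthest above.

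Per kilobase of transcript the 41 genes spanned 4.79 (TIMM21) to 206 (HSPD1) CPM per kilobase in the controls. TOMM7 (156), HSPA9 (154), TOMM20 and TRAP1 (134 each) and TOMM6 (111) followed HSPD1. After knockdown HSPD1 stood at 286, TOMM6 at 168, TOMM20 at 151, TOMM7 at 147 and HSPA9 at 120 CPM per kilobase. GRPEL2 went from 14.9 to 6.51 CPM per kilobase, below TIMM21 at 6.59. All 41 genes together summed to 4518 to 4583 CPM in the controls and 4653 to 4737 CPM after knockdown.

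Other genes of the pathway were taken from 4 lists. Of 18 tested genes for membrane insertion, outer-membrane channels and cristae, 9 rose and 5 fell (median 0.07), against 38.7% and 38.6% of all genes. VDAC3, a porin (0.57), and MTCH2, an outer-membrane insertase (0.51), rose, while BCS1L, an inner-membrane translocase for the Rieske protein (-0.55), and MTX3, a metaxin (-0.48), fell. Of 17 other mitochondrial peptidases and quality control genes, 5 rose and 6 fell (median -0.04), against the same shares. AFG3L2, a subunit of the matrix-facing AAA protease, fell from 117 ± 2.65 to 65.8 ± 2.06 CPM (SD, n = 4; -0.83), and DNAJA3, a J protein that works with HSPA9, from 128 ± 4.42 to 79.8 ± 1.45 CPM (-0.68). IMMP1L, a subunit of the inner-membrane peptidase (0.39), and CLPB, a disaggregase (0.33), rose.

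Cytosolic chaperones that deliver precursors rose in 12 of 18 cases and fell in 2, against 38.7% and 38.6% of all genes, with a median of 0.28. The share called in either direction was 77.8%, against 77.3%. HSP90AA1 (1.35), HSPA1A (1.17), HSPA1B (0.98) and DNAJA1 (0.75), which belong to the HSP90, HSP70 and J-protein classes, changed most. HSPA1A and HSPA1B share 69.9% and 72.7% of their 100-base windows with each other or with an overlapping annotation, so their split is uncertain. Among 15 tested regulators of mitochondrial biogenesis and stress, 6 rose and 5 fell (median -0.01), against 38.7% and 38.6%. ATF5 rose from 4.71 ± 0.539 to 11.2 ± 0.205 CPM (SD, n = 4; 1.251), whereas DDIT3 (-0.98), ATF4 (-0.71) and the mitochondrial rRNA methyltransferase TFB1M (-0.53) fell. ATF4, ATF5 and DDIT3 are transcription factors linked to the mitochondrial stress response. No relation between these regulators and the import genes was tested.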

How the data were processed

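RNA of 8 KYSE150 samples was sequenced, and the genotype in the labels gave the groups. Per the labels' protocols, the VAHTS Universal V6 kit was used for library preparation. The series design text names paired-end reads and fastp for cleaning. The submitters' processing notes name hg38. For the aligner, counter, annotation and strand setting, the step was not given in the sources used here. The authors deposited unnormalised read counts for each gene.

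Genes were filtered with filterByExpr (minimum count 10, minimum total 15), scaled with TMM factors and tested with edgeR's quasi-likelihood test (robust, group term only), with Benjamini-Hochberg adjustment over all 12001 genes at 0.05. Intervals of 95% are normal intervals from the fitted SE. Pair ratios used counts plus 2 and an exact permutation test adjusted over 13 pairs, 14 having been listed, 1 with PAM16. Marker sums used library totals alone. Lengths, overlaps and 3′ ends came from GENCODE 29, and positions and promoters from RefSeq GRCh38.p14. Libraries within a group differed beyond counting noise (chi-square per degree of freedom 2.66 to 3.70). Software was R 4.3.3, edgeR 4.0.16, limma 3.58.1, DESeq2 1.42.0 and Python 3.11.15, and the fit was tested on simulated counts.

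The genes, lists and pairs were chosen with earlier results of these data known. All 41 genes are named. Values in every library are given for called genes whose log2 change reached 0.58 in size, for the largest change in each role group, and for both genes of pairs that passed and moved by at least 0.4. From each other list up to 4 called genes with the largest change and at least 1 CPM are named. No protein table was used here, so no protein is compared. Alternatives were DESeq2, limma-voom, 2 other scalings, 2 other filters, a replicate block, other prior counts for the ratios, and leaving out libraries.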

Additional observations from a re-analysis of the deposited data

Results flagged for a closer look

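Of 84 groups of 4 libraries (the 41 genes and HNRNPC in each group), 6 had 1 library far from the other 3 by Dixon's test, which chance gives in about 1 in 20 groups. In shHNRNPC replicate 1, TIMM10 (51.5 CPM, others 57.3 to 57.8), TIMM8B (75.8 CPM, others 81.3 to 82.0) and TOMM22 (146.6 CPM, others 152.8 to 154.0) were low. HSPD1 was high in shHNRNPC replicate 3 (719 CPM, others 693 to 696). In control replicate 1, TOMM22 was high (130.6 CPM, others 127.1 to 127.5) and TIMM50 low (71.6 CPM, others 72.3 to 72.4). All these values stayed on their group's side of the other group.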

How the results depend on the processing

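Under the 16 alternative fits 19 to 22 of the 41 genes were higher and 10 to 12 lower, and 28 of the 32 called genes kept their call in each. CLPX, GRPEL1, SAMM50 and TIMM29 did not. HNRNPC fell in all of them. The median of the 41 genes was 0.09 with upper-quartile factors (0.086) and with library totals (0.091), 0.10 to 0.127 when single libraries were left out, and that of all genes -0.032 and -0.027 with these scalings. Values near 0 changed sign: with upper-quartile factors and with library totals CLPP was -0.006 and -0.001, MTX1 -0.008 and -0.003, and TIMM17B -0.01 and -0.005. Leaving out single libraries gave -0.019 to 0.056 for MTX1, -0.004 to 0.039 for TIMM17B, -0.04 to 0.008 for GFER and -0.028 to 0.021 for TIMM8A, which was 0.013 without shHNRNPC replicates 1 and 4. The cause was not tested. Same-numbered libraries of the 2 groups did not deviate together (correlations -0.055 to 0.017), and with the replicate number as a block 22 genes were higher and 10 lower. For the pair ratios the exact sign-flip permutation test of the block cannot go below p = 0.125 with 4 replicate numbers, so 0 of 13 could pass. The 11 pairs became 9 to 12 when single libraries were left out, where fewer assignments make the steps of the p-value larger. HSPE1, with 159 to 385 reads per library, had an SE of 0.0996, against 0.0182 for HSPA9 with 15652 to 24937, and the part of depth in that was not tested.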
